A study of Bos taurus with 8 samples.

Results

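The miR-181 family is made up of bta-miR-181a, bta-miR-181b, bta-miR-181c and bta-miR-181d, and its members were chosen by name from the miRNA tables of bovine sera and exosomes. All 4 members were listed among the 534 miRNAs of each table, and all 4 had reads in each of the 8 libraries. Blood was taken from 4 healthy lactating Holstein cows, without any treatment, and left to clot. The 4 sera libraries (SE) were made from RNA of whole serum and the 4 exosome libraries (EX) from RNA of vesicles that a precipitation kit had isolated from the same sera. Whole serum still holds its exosomes, so the sera values include exosomal miRNAs. The serum volume and the RNA kit differed between SE and EX, and an effect of the sample type therefore cannot be told apart from one of the extraction. The tables list miRNAs only, so the label exosome could not be checked against vesicle proteins.

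MiR-181 miRNAs share the seed, the stretch at the 5′ end of a miRNA through which it recognizes its target mRNAs, so that members can bind many of the same targets. MiR-181a is best known from the thymus and from lymphocytes, where it tunes how strongly T cells respond to their antigen and takes part in the differentiation of B cells. In the RefSeq table of the assembly ARS-UCD2.0, 6 hairpin genes give rise to the 4 mature miRNAs, and they lie in 3 neighbouring pairs. MIR181A-1 lies next to MIR181B-1, and MIR181A-2 next to MIR181B-2 within the span of NR6A1, the gene of an orphan nuclear receptor. MIR181C lies next to MIR181D within the span of NANOS3, the gene of an RNA-binding protein of germ cells. Reads of mature miR-181a cannot be assigned to one of its hairpins, and the same holds for miR-181b.

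The unit was RPM, the reads of a miRNA scaled to a fixed total of miRNA reads in each library. A serum library held between 264769 and 590162 miRNA reads, and an exosome library between 60682 and 157710. The floor was taken as 3 reads, equal to 5.08 to 11.3 RPM for sera and 19.0 to 49.4 RPM for exosomes. PCR copies are not separate molecules, so the counting intervals and floors given here cover counting error alone. Cow 1 stood apart in both libraries by the sum of its muscle miRNAs (miR-1, miR-206, miR-133a, miR-133b, miR-499 and miR-208b). The sum reached 23097 RPM in SE and 26301 RPM in EX against 164 to 342 RPM in the other cows. Most of it was miR-133a, with 21761 RPM in SE and 25279 RPM in EX of cow 1. MiR-133b, miR-499 and miR-208b were also highest in cow 1, while miR-1 and miR-206 were too low to be tested. The erythrocyte miRNAs miR-486, miR-451, miR-144, miR-16a, miR-16b and miR-92a summed to between 228574 and 325238 RPM in sera and between 268762 and 490831 RPM in exosomes. Of the liver miRNA miR-122, sera held between 13.5 and 108 RPM and exosomes between 0 and 48.8 RPM.

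The members differed widely in level, and their order was the same in all 8 libraries. MiR-181a was the highest, followed by miR-181b, miR-181c and miR-181d, and their counting intervals overlapped only for miR-181c and miR-181d in exosomes. MiR-181a ranked 27 to 33 among all miRNAs of a library and miR-181b ranked 84 to 104. MiR-181c ranked 142 to 165 and miR-181d 201 to 228. The family as a whole made up between 0.634% and 0.917% of a serum library and between 0.492% and 0.717% of an exosome library.

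**Figure D1:**
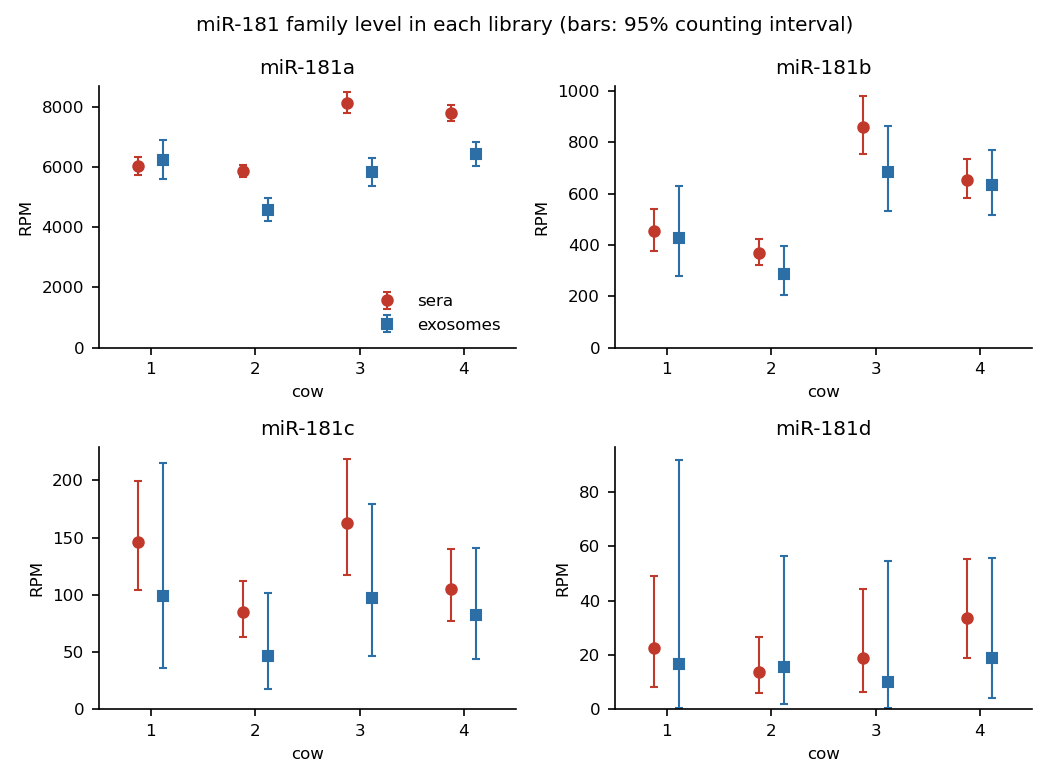
RPM of each member (y axis, linear from 0) in sera (red circles) and exosomes (blue squares) of cows 1 to 4, with bars for the exact 95% Poisson interval of the reads. MiR-181a and miR-181b are high in cows 3 and 4 in sera, and the bars of miR-181d in exosomes rest on 1 to 3 reads and reach from 0.417 to 91.8 RPM in cow 1.

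MiR-181a, the leading member, was at 6022, 5868, 8128 and 7796 RPM in serum (cows 1 to 4, in this order). The exosome values were 6229, 4569, 5828 and 6436 RPM. The sera of cows 3 and 4 were above every exosome library, those of cows 1 and 2 lay among the exosome values, and the groups overlapped. Each value rested on between 1609 and 3476 reads in sera and between 378 and 1015 reads in exosomes. MiR-181b, whose hairpins neighbour those of miR-181a, was at 453, 369, 861 and 655 RPM in sera. In exosomes it was at 428, 288, 683 and 634 RPM. Cow 2 was the lowest and cow 3 the highest in both sample types, and the groups overlapped over most of their range.

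MiR-181c was at 146, 84.7, 162 and 105 RPM in serum and at 98.9, 46.8, 97.6 and 82.4 RPM in exosomes. Sera were higher in 4 of 4 cows, but the groups overlapped, and the exosome values rested on 6 to 13 reads. MiR-181d, its neighbour in the genome, was at 22.5, 13.6, 18.9 and 33.6 RPM in sera, from 5 to 15 reads. In exosomes it was at 16.5, 15.6, 9.8 and 19.0 RPM, from 1, 2, 1 and 3 reads, so that all of these libraries were at or under the floor of 3 reads. The pooled reads of miR-181d, 34 in sera and 7 in exosomes, gave a ratio of sera to exosomes of 1.39 with an exact 95% counting interval of 0.607 to 3.72.

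Sera were compared with exosomes to ask whether the members are carried unequally in the vesicles. No member passed the test. Over the 365 expressed miRNAs, limma called 5.21% higher in sera and 1.64% higher in exosomes at an FDR under 0.05, and 0 of the 4 members were among them. When the cow entered limma as a replicate block, these shares were 23% and 3.29%, again with 0 of the 4 members. At an unadjusted limma p under 0.05 the number of members was 0 without the block and 1 with it, miR-181a. The edgeR quasi-likelihood test on recovered reads called 0 members. The mean of miR-181a was 6954 ± 1174 RPM for sera and 5766 ± 837 RPM for exosomes (SD, n = 4). Its log2 fold change (FC, sera minus exosomes, on log2(RPM + 1)) was 0.27, with a 95% confidence interval from -0.15 to 0.68 and a limma FDR of 0.41. For miR-181b the means were 585 ± 220 and 509 ± 184 RPM (SD, n = 4), and its log2 FC was 0.20 with an interval from -0.51 to 0.92 (limma FDR = 0.767). For both miRNAs, a difference of 2-fold or more (a log2 FC over 1 or under -1) lay outside the interval.

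The mean of miR-181c was 125 ± 35.8 RPM for sera and 81.4 ± 24.3 RPM for exosomes (SD, n = 4), and its log2 FC was 0.62 with an interval from -0.32 to 1.56 (limma FDR = 0.399). For miR-181d the means were 22.2 ± 8.46 and 15.2 ± 3.89 RPM (SD, n = 4), and its log2 FC was 0.48 with an interval from -1.11 to 2.07 (limma FDR = 0.755). A 2-fold difference towards sera lay inside both intervals, and for miR-181d so did one towards exosomes. The median log2 FC of all tested miRNAs was 0.57, and 0.31 for the 128 of them that reached 10 reads throughout the 8 libraries. MiR-181a and miR-181b lay 0.30 and 0.37 below the median of all miRNAs on the log2 scale, and miR-181c and miR-181d within 0.10 of it. MiR-181a and miR-181b are among the 128, and their log2 FC of 0.27 and 0.20 lay closer to the median of these, 0.31. Without the 10 most abundant miRNAs in the denominator, among them miR-486, the log2 FC of miR-181a was -0.05 and that of miR-181b -0.11, so the direction of both depends on the scaling. With TMM scaling the log2 FC of miR-181a was 0.063, and by edgeR it was 0.066. Without the muscle miRNAs in the denominator it was 0.27.

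**Figure D2:**
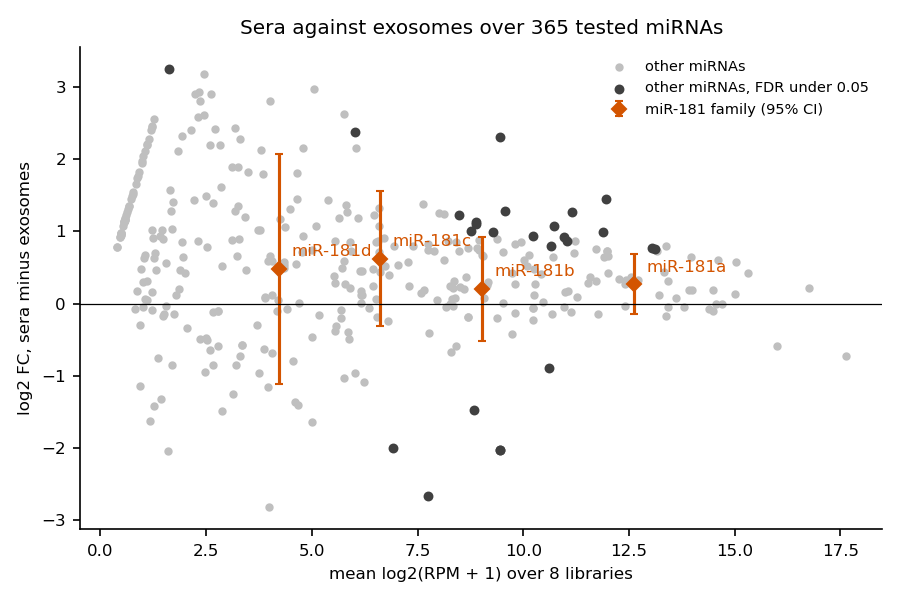
Log2 FC of sera minus exosomes (y axis) against the mean log2(RPM + 1) over the 8 libraries (x axis) for the 365 tested miRNAs. The members (orange diamonds, 95% confidence intervals) lie inside the cloud of other miRNAs (grey), and all 4 intervals include 0, unlike those called at an FDR under 0.05 (dark grey).

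Within cows, the log2 difference of miR-181a was -0.05 in cow 1 and 0.36, 0.48 and 0.28 in cows 2 to 4. That of miR-181b was 0.08, 0.36, 0.33 and 0.05, higher in sera in 4 of 4 cows. That of miR-181c was 0.56, 0.84, 0.73 and 0.35, and that of miR-181d 0.43, -0.19, 0.88 and 0.79. With the cow as a replicate block, limma gave miR-181a an FDR of 0.0686 and an interval of 0.04 to 0.49, which leaves out 0, while its FDR stayed above 0.05. The summed level of the members was 7685 ± 1406 RPM for sera and 6371 ± 995 RPM for exosomes (SD, n = 4). The difference of 1314 RPM was not called by a permutation test that ignores the pairing by cow (two-sided exact test with 70 assignments, p = 0.257, adjusted p = 0.386 over 3 comparisons). The difference was 312 RPM with TMM scaling, 819 RPM without the serum of cow 3 and 831 RPM without the exosomes of cow 2, and it turned to -516.5 RPM without the 10 most abundant miRNAs in the denominator. Sera were higher in 3 of 4 cows (two-sided exact sign-flip test, p = 0.25).

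The makeup of the family is a ratio within a library and does not depend on the denominator of RPM. MiR-181a held 90.9% of the pooled family reads in sera and 90.4% in exosomes. MiR-181b held 7.30% and 8.17%, miR-181c 1.52% and 1.23%, and miR-181d 0.289% and 0.246%. For every 100 reads of miR-181a there were 7.52, 6.30, 10.6 and 8.40 reads of miR-181b in serum, and 6.88, 6.31, 11.7 and 9.85 in the exosomes. The cows stood in the same order in both sample types, with cow 2 lowest, then cows 1, 4 and 3. The mean log2 ratio of miR-181b to miR-181a was -3.63 in sera and -3.57 in exosomes, a difference of -0.06 (exact permutation test, two-sided p = 0.8; adjusted p = 0.8 over 3 comparisons). Within cows the difference ranged from -0.23 to 0.13.

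Reads of miR-181c per 100 reads of miR-181a were 2.42, 1.44, 2.0 and 1.35 in sera and 1.59, 1.02, 1.68 and 1.28 in exosomes. The ratio was higher in sera in 4 of 4 cows, with a mean log2 difference of 0.36. A permutation test that ignores the pairing by cow did not call it (exact, two-sided p = 0.229, adjusted p = 0.386 over 3 comparisons). The two-sided exact sign-flip test on the cows gave p = 0.125, below which a test of 4 pairs cannot go, so it could not decide. The log2 difference was 0.20 without the serum of cow 1, 0.22 without the exosomes of cow 2 and 0.83 at equal depth. MiR-181d made up 16% of the pooled reads of miR-181c and miR-181d in sera (Wilson 95% interval 11.7% to 21.5%) and 16.7% in exosomes (8.32% to 30.6%).

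**Figure D3:**
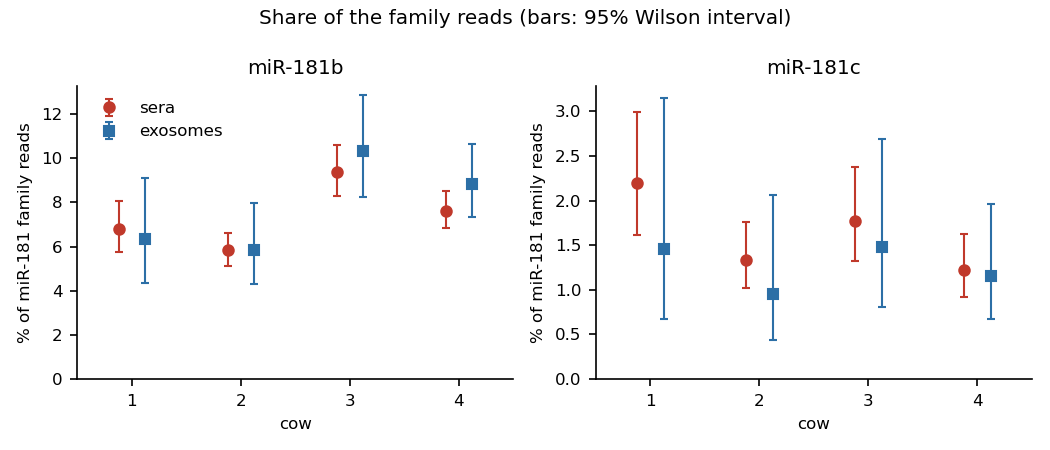
Percentage of the miR-181 family reads (y axis, from 0) taken by miR-181b and miR-181c in sera (red circles) and exosomes (blue squares) of each cow, with Wilson 95% intervals. For miR-181b the interval of cow 2 lies below that of cow 3 in sera (6.63% against 8.29%) and in exosomes (7.98% against 8.25%).

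The cows were compared to ask how far the members vary between healthy animals, with the serum and the exosome library of a cow as a pair of readings of a single blood draw. A difference between cows therefore cannot be told apart from one between draws. MiR-181b differed between the cows and was the only one of the 4 members to do so at an FDR under 0.05. Of the 365 miRNAs, 25.5% were called in this comparison. This share includes many thinly counted miRNAs. In a limma fit of only the 128 that reached 10 reads throughout, 89 were called, among them miR-181b and also miR-181a (FDR = 0.0361). A difference between cows was therefore common at this depth and not particular to miR-181b. The mean of the SE and EX libraries was 441, 329, 772 and 644 RPM of miR-181b in cows 1 to 4 (limma F test of the cow, FDR = 2.4e-05). The edgeR quasi-likelihood test on recovered reads also called miR-181b, with an FDR of 0.00275. The deviations from the mean of the sample type had the same sign in the serum and the exosomes of all 4 cows, with -0.58 and -0.74 on the log2 scale in cow 2 and 0.63 and 0.51 in cow 3. The highest cow was 2.33-fold above the lowest in sera and 2.37-fold in exosomes. In a single draw of every library down to 60682 reads, the FDR was 0.0953. With cow 2 left out it was 0.0492.

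MiR-181a, with cow means of 6126, 5218, 6978 and 7116 RPM, did not pass this test (limma F test, FDR = 0.0782). Cow 2 was the lowest in both sample types, but the highest was cow 3 in sera (1.39-fold above cow 2) and cow 4 in exosomes (1.41-fold). The libraries of cow 1 deviated in opposite directions, by -0.19 in sera and 0.12 in exosomes on the log2 scale, and without cow 1 the FDR was 0.00585. It was 0.666 without cow 2, 0.269 without cow 4, 0.364 with TMM scaling and 0.485 by edgeR. MiR-181c had cow means of 122, 65.8, 130 and 93.9 RPM (limma F test, FDR = 0.476), and cow 2 was the lowest in both sample types. MiR-181d had cow means of 19.5, 14.6, 14.4 and 26.3 RPM (limma F test, FDR = 0.947).

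The spread of miR-181a between cows was below the median of the 128 miRNAs that reached 10 reads throughout. Its SD of log2(RPM + 1) was 0.24 in sera and 0.22 in exosomes, where the median miRNA had 0.32 and 0.35. That of miR-181b was 0.54 in sera and 0.57 in exosomes, above 87.5% and 82.0% of these miRNAs. Counting error alone would give miR-181b a coefficient of variation of 7.19% in sera and 15% in exosomes, and 37.6% and 36.1% were found. For miR-181d in exosomes the counting error was larger than the spread found (84.2% against 25.6%), so its variation between cows was not detectable at this depth.

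**Figure D4:**
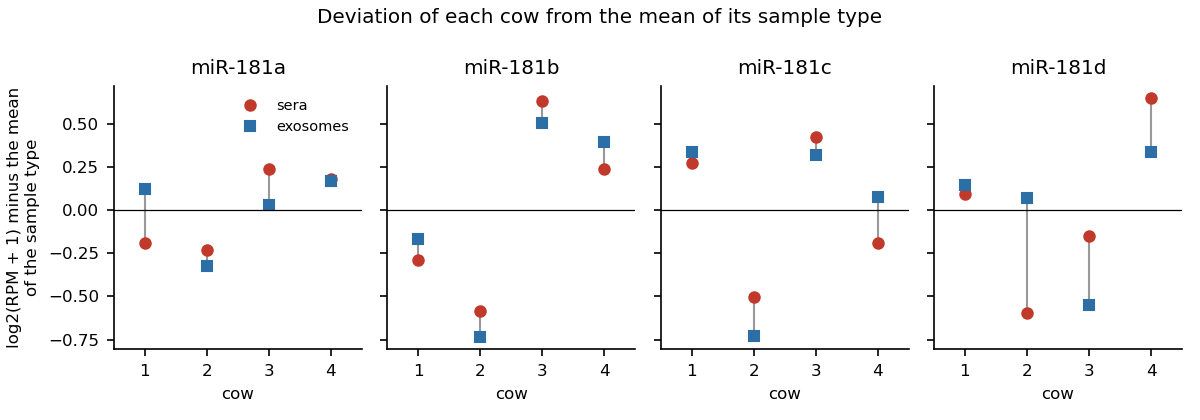
Log2(RPM + 1) of each library minus the mean of its sample type (y axis) for cows 1 to 4 (x axis), with sera as red circles, exosomes as blue squares and a grey line joining the pair of each cow. Both points of miR-181b lie below 0 in cows 1 and 2 and above 0 in cows 3 and 4, from -0.74 in cow 2 to 0.63 in cow 3.

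The miRNAs most like miR-181a over the 8 libraries, by the root mean square difference of log2(RPM + 1) after removal of the mean of each miRNA, were miR-27b (0.19), miR-151-3p (0.20) and miR-21-5p (0.21), among 126 miRNAs with a median of 0.38. MiR-181b was 0.32 away from miR-181a and took place 35 in this order. The miRNAs most like miR-181b were miR-127 (0.27), let-7d (0.28) and miR-140 (0.31), where the median was 0.53, and miR-181a came in place 4. The serum and exosome libraries of a cow share their blood draw, so these are not 8 independent samples.

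The other immune-cell miRNAs were set beside the family, because miR-181a is known from lymphocytes. Of the 8 on the list (miR-142-3p, miR-142-5p, miR-146a, miR-146b, miR-150, miR-155, miR-223 and miR-342), 1 was higher in sera and 0 in exosomes by limma. The shares over all tested miRNAs were 5.21% and 1.64%. The median log2 FC of the list was 0.34. MiR-146b, which restrains inflammatory signalling, was the one that rose in sera (149 ± 31.2 against 29.9 ± 13.9 RPM, SD, n = 4, log2 FC of 2.38, limma FDR = 0.0125). Its exosome values of 16.5 RPM in cow 1 and 19.5 RPM in cow 3 were under the floor of 3 reads, which was 49.4 and 29.3 RPM there. With the cow as a replicate block, 4 of the 8 were higher in sera, where the share over all tested miRNAs was 23%. MiR-150, abundant in mature lymphocytes, was at 10066 ± 2007 RPM for sera and 11432 ± 2554 RPM for exosomes (SD, n = 4, log2 FC of -0.18, limma FDR = 0.669). Between cows 5 of the 8 were called, where the share over all tested miRNAs was 25.5%. Most of the list is well counted, and limma on only the 128 miRNAs that reached 10 reads throughout called 89 of them. The 5 of 8 therefore cannot be read as an excess among immune-cell miRNAs. Among the 5 was the myeloid miR-223 (limma F test, FDR = 1.2e-06), which was highest in cow 3 and lowest in cow 4 in both sample types. Of the 6 erythrocyte miRNAs, 2 were higher in sera, miR-144 and miR-16a, where the share over all tested miRNAs was 5.21%. With the replicate block 3 were higher in sera and 2 in exosomes, where the shares over all were 23% and 3.29%. The 2 higher in exosomes were miR-486 (log2 FC of -0.73, limma FDR with the block = 2.1e-05) and miR-92a (log2 FC of -0.59, limma FDR with the block = 7.3e-05).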

How the data were processed

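Small RNA of 4 sera and 4 exosome samples was sequenced as single reads. The authors filtered reads with CASAVA 1.8, trimmed adaptors and aligned reads over 15 nt to bovine miRBase entries with sRNAbench at default settings, and deposited RPM for each library. How sRNAbench divided reads that match several members is not given in the sources used here, and no member had the same values as another miRNA. Whole reads were recovered from the steps of the RPM values, with 100% of the values whole within 0.05 RPM. Groups and cow numbers came from the titles. Limma (lmFit, eBayes with trend) was run on log2(RPM + 1) over the 365 miRNAs above 1 RPM in at least 2 cattle of a sample type, with Benjamini-Hochberg FDR. The design names the cow as a replicate block only as an alternative. The cow pairs the libraries by the study's methods, and over 128 miRNAs the deviations of the same cow correlated with r from 0.740 to 0.860. In the fit with the cow, the variance was pooled fully over miRNAs of like level, so its FDR rests on other miRNAs more than on the spread of a member. Single values were tested with exact permutation tests. Both fits were first run on simulated reads with planted differences, where the share of false calls of limma was above its nominal limit in both comparisons and limma found fewer of the differences between cows than edgeR. The authors' test was edgeR, which was used here only on recovered reads, as an alternative. The members, lists and tests were chosen with earlier results of these data known. The named miRNAs are the members, the fixed lists and the 3 miRNAs most like miR-181a and miR-181b. The fits used limma 3.58.1 and edgeR 4.0.16 under R 4.3.3, and the other steps Python 3.11.15 with SciPy 1.17.1, NumPy 2.4.6 and pandas 2.3.3.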

Additional observations from a re-analysis of the deposited data

Results flagged for a closer look

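The summed muscle miRNAs of cow 1, most of them miR-133a by RPM, stood far from the other cows. Their sums were 23097 RPM in sera, where the next cow had 244 RPM, and 26301 RPM in exosomes, where the next had 342 RPM. Of 30 groups of 4 values checked, these 2 passed Dixon's 95% limit, which chance passes in about 1 of 20 groups. No value of a miR-181 member, of the family sum or of the makeup of the family passed it.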

How the results depend on the processing

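No alternative brought a member past an FDR of 0.05 between sera and exosomes, and the replicate block changed no call of a member. The log2 FC of miR-181a kept its sign in 22 of 23 alternatives (limma and edgeR FDR from 0.0686 to 0.912) but was 0.063 with TMM scaling, 0.066 by edgeR, 0.064 by edgeR with the replicate block and -0.047 without the 10 most abundant miRNAs. That of miR-181b was -0.11 without these, -0.037 by edgeR and -0.020 by edgeR with the replicate block, and it ranged from -0.042 to 0.40 with 1 library left out, negative without exosomes of cow 2 (-0.042) or serum of cow 3 (-0.0078). Those of miR-181c (0.31 to 1.04) and miR-181d (0 to 0.70) were never negative, but neither could be tested among miRNAs with 10 reads throughout. The cow FDR of miR-181a passed 0.05 with that filter (0.0361) and without cow 1 (0.00585), and was up to 0.666 (without cow 2) in the other 11 alternatives. That of miR-181b was 0.0953 at equal depth and 2.7e-06 to 0.0492 in the other 12 alternatives. The summed RPM differed by -516.5 without the 10 most abundant miRNAs. The log2 ratio of miR-181b to miR-181a differed by 0.051 at equal depth and by -0.20 to 0.097 with 1 library left out, positive without serum of cow 2 (0.056) or exosomes of cow 3 (0.097) or cow 4 (0.013). That of miR-181c to miR-181a differed by 0.20 to 0.83. Leaving the muscle miRNAs out of the denominator changed no call of a member. The causes were not tested.

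Of all miRNAs, 19 were higher in sera. This number was 30 with 10 reads throughout, 8 without the 10 most abundant, 12 with TMM scaling, 10 by edgeR, 84 with the replicate block, 55 by edgeR with the replicate block, 9, 12 and 2 without cows 2, 3 and 4, and 11 to 25 with 1 library left out (11 without serum of cow 2 or cow 3). The 6 higher in exosomes became 12 with the replicate block, 24 by edgeR with it, and 3 without cow 2 or cow 4. The 93 that differed between cows became 19 at equal depth and 51 without cow 4. In exosomes, depth limits miR-181c (6 to 13 reads) and miR-181d (1 to 3 reads).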
